A study of Mus musculus with 13 samples.

Results

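The 77 histone genes of a mouse mammary tumour study were examined, out of 38279 gene symbols counted. They were chosen by name alone. The first class holds 69 genes whose symbols begin with Hist1h, Hist2h, Hist3h or Hist4h and is called clustered here, because such genes lie in arrays. The second class holds 8 genes outside the arrays that encode variant histones: H2afz, H2afv, H2afy, H2afj, H3f3a, H3f3b, Cenpa and H1f0. The clustered genes comprise 6 H1, 20 H2A, 18 H2B, 12 H3 and 13 H4 genes. Of these, 55 belong to the Hist1 array on chromosome 13, 10 to Hist2 on chromosome 3, 3 to Hist3 on chromosome 11 and 1 (Hist4h4) lies on chromosome 6. The clustered symbols Hist1h2aj, Hist1h2al and Hist3h2bb-ps are annotated as pseudogenes in GENCODE M21 and are counted among the genes here.

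The sequenced RNA came from 6 mammary tumours, all from mice that carry Cre (Cre-positive), and from 4 whole glands of wild-type mice that lack it (Cre-negative). Mice of both kinds were mated at 12 weeks of age, which induced excision of Fbxw7, the F-box protein by which an SCF ubiquitin ligase recognises its substrates, where Cre was present. They were followed until a tumour was felt or until 40 weeks after pregnancy. Tumours 1 to 6 came from mice of 25, 32, 39, 19, 53 and 25 weeks, and glands 1 to 4 from mice of 20, 20, 20 and 40 weeks. The labels used here name neither the promoter that drives Cre, nor the exons excised, nor the strain, and a further 3 samples of purified epithelium were not analysed here. Genotype and tumour state differ together between the groups and cannot be told apart, while the ages of the groups overlap.

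Nucleosomes are built from H2A, H2B, H3 and H4, with H1 bound to the linker DNA. Most of this protein comes from the clustered genes, which are transcribed in S phase and give short mRNAs without introns. Such an mRNA ends just past a stem-loop that is bound by the protein Slbp, and it carries no poly(A) tail. Variant histones come for the most part from polyadenylated mRNAs, many of them spliced, and their synthesis is not confined to S phase. Some clustered genes also give longer, polyadenylated transcripts in cells that do not divide. The libraries were made from polyA RNA, so a count for a clustered gene reflects the transcripts that this selection retained, and total histone mRNA cannot be read from it.

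The letters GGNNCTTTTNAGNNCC, in which N is any base, were found in the GENCODE M21 transcripts of 44 of the 69 clustered genes. The examples show the stem-loop of the genes on which the results turn, from the RNA's 5′ to its 3′ side in DNA letters, with the 16 stem-loop bases in capitals and up to 5 bases on either side.
Hist1h2ap: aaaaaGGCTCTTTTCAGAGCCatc
Hist1h1c: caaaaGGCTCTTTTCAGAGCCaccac
Hist1h2be: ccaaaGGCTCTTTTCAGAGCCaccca
Hist1h2bk: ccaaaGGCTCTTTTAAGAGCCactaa
Hist1h4h: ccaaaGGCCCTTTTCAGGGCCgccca
Hist1h4j: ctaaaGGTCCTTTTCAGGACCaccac
The form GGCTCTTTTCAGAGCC was the most frequent, in 26 genes, while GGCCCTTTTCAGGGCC occurred in 7 genes, all of them H4. The annotated transcript ran on for 3 bases after the stem-loop in Hist1h2ap, 30 in Hist1h2bk and 46 in Hist1h4h. It ran on for 385 bases in Hist1h4j, 840 in Hist1h1c and 1861 in Hist1h2be. A transcript is called short below where fewer than 100 bases follow the stem-loop (22 genes) and extended otherwise (22 genes). The other 25 genes had no such letters in the annotated transcript.

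Promoters from RefSeq (build GRCm38.p6, 250 bases before to 50 bases after the start) were at hand for 69 of the 77 genes, 61 clustered and 8 variant. Those of Hist1h2ap, of the clustered gene Hist1h4h and of the variant gene H2afz are shown because Hist1h2ap and H2afz rose and Hist1h4h fell in tumours. Capitals mark matches on either strand to CCAAT (the box bound by NF-Y), TATAAA (a form of the TATA box), ATTTGCAT (the octamer of histone H2B promoters), TTTGGCGC (an E2F form) and TTTGAA (the core of the cell cycle homology region). None of these 5 motifs contains another.
Hist1h2ap, chr13:21833426-21833725, minus strand: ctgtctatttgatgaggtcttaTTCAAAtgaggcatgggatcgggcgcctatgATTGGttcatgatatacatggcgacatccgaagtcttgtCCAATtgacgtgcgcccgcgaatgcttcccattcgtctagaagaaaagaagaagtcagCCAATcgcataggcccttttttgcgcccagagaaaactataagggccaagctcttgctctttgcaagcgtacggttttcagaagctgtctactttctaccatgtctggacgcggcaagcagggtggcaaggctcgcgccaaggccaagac
Hist1h4h, chr13:23530794-23531093, plus strand: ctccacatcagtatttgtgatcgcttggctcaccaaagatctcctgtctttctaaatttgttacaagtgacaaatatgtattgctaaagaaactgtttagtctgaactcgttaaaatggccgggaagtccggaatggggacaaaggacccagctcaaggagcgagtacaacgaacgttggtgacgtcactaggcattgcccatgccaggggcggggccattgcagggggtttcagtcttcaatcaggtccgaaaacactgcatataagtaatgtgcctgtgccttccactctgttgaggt
H2afz, chr3:137864237-137864536, plus strand: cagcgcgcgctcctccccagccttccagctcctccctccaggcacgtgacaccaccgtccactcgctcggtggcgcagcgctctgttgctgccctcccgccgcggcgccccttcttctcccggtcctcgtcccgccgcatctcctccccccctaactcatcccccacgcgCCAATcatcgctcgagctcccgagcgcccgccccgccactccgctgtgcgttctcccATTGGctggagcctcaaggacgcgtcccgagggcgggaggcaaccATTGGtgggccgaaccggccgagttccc
The Hist1h2ap window held CCAAT 3 times and TTTGAA once, that of H2afz held CCAAT 3 times, and that of Hist1h4h held none of the 5 motifs. CCAAT occurred in 52 of 61 clustered promoters (85.3%), in 6 of 8 variant promoters and in 41.1% of 27025 RefSeq promoters of the same length. It was in all H1, H2A, H2B and H3 windows and in 3 of 12 H4 windows. TATAAA occurred in 34 clustered promoters (55.7%) against 15.7% of all, ATTTGCAT in 13 (21.3%) against 1.97%, and TTTGAA in 29 (47.5%) against 20.2%. TTTGGCGC occurred in 0 clustered windows and in 0.585% of all, so a match was rare throughout. The windows are not independent, since 9 pairs of an H2A and an H2B gene, Hist1h2ap and Hist1h2br among them, start back to back and share part of a window.

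Total counts per library ran between 13723065 (gland 3) and 48353114 (gland 2). Levels are given as CPM (counts relative to the library's total) scaled by edgeR's TMM method, which sets the total against the bulk of genes. The scaling factors of tumour 1 (0.422) and gland 4 (0.580) stood apart from the others (0.889 to 1.41). Tumours 1 and 6 carried salivary gland transcripts: 10 salivary marker genes summed to 1202000 scaled CPM in tumour 1 and 187900 in tumour 6, against 18.4 to 304.6 in the other 4 tumours and 136 to 484 in glands. Skeletal muscle markers summed to 13110, 5027, 36.5 and 128600 CPM in glands 1 to 4, against 2.94 to 942 CPM in tumours. T and NK cell markers reached 727 and 597 CPM in glands 2 and 3. All 10 luminal epithelial markers were present in both groups, with sums of 1752 to 4084 CPM in tumours and 458 to 766 CPM in glands, while the 10 adipocyte markers summed to 18.5 to 1678 CPM in tumours and 11140 to 43620 CPM in glands. These differences in tissue make-up move with every comparison below, and their part in the results was not tested. In whole tissue, fewer cells of a type and less RNA per cell cannot be told apart. Fbxw7 itself was at 15.1 to 47.3 CPM in tumours and 14.3 to 83.6 CPM in glands (log2 fold change -0.12 with an SE of 0.51, adjusted p = 0.888, edgeR), and a gene total is no check of the genotype, as the excised exons are not stated. Its sign turned without gland 4 (0.80).

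Of the 8 variant histone genes 4 were called higher in tumours and 4 were not called. The summed level of the 8 was 1219, 2435, 5685, 3600, 3572 and 1624 CPM in tumours 1 to 6, against 937, 948, 1008 and 1169 CPM in glands 1 to 4. Every tumour lay above every gland on this scale, tumour 1 by a small margin and tumour 3 by the widest. Without TMM scaling the groups overlapped: the 8 genes took 0.0510, 0.333, 0.505, 0.458, 0.503 and 0.161% of all counts in tumours, against 0.101, 0.126, 0.132 and 0.0677% in glands, and tumour 1 lay below every gland. H2afz, Cenpa, H3f3b and H2afy rose and 0 of the 8 fell at an adjusted p below 0.05 in edgeR's quasi-likelihood test, where 6.89% of all 20101 genes tested were called higher and 8.19% lower. At an unadjusted p below 0.05 the counts were 6 higher and 0 lower, and no other tool or scaling gave a lower call. The median log2 fold change of the 8, tumour over gland, was 1.48, beside 0.17 over all genes tested. In 3 of the 8 every tumour lay above every gland on the TMM scale, where 6.54% of all genes did so. In CPM without TMM scaling tumour 1 lay within the gland range in all 3 (H2afz, H3f3b and Cenpa). The count of 4 became 0 without gland 1, 1 without gland 2 and 2 without gland 3 or gland 4.

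**Figure D1:**
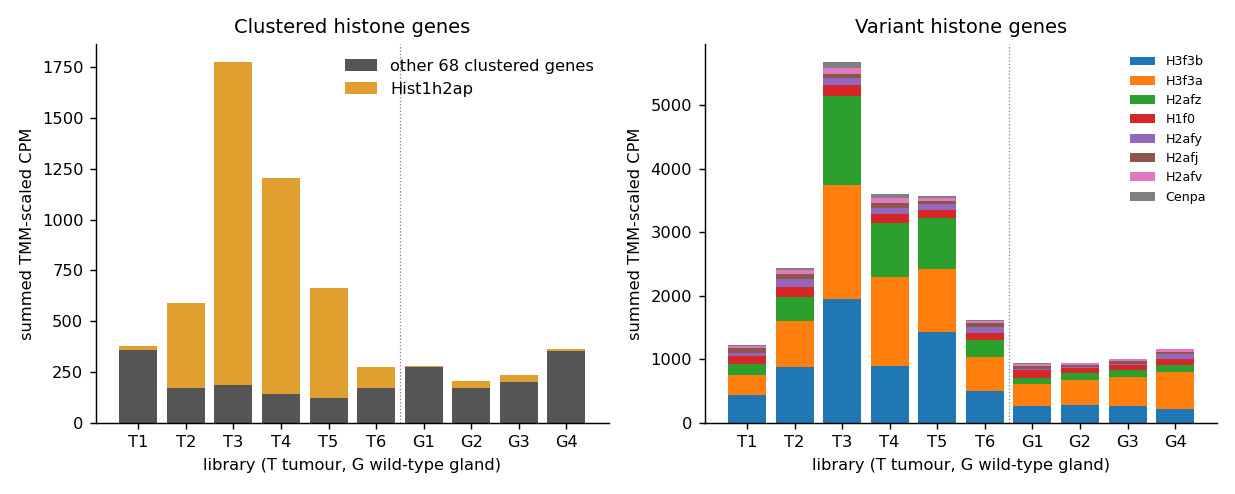
Summed TMM-scaled CPM of the 69 clustered genes (left, with the share of Hist1h2ap in yellow) and of the 8 variant genes (right, 1 colour per gene), 1 bar per library, tumours 1 to 6 (T1 to T6) left of wild-type glands 1 to 4 (G1 to G4). The clustered sums reach 1776 in tumour 3, mostly Hist1h2ap, while the grey remainder spans 122 to 358 in tumours and 169 to 353 in glands.

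H2afz and H2afv encode the H2A.Z pair, which marks nucleosomes beside start sites. H2afz was at 166, 378, 1404, 847, 805 and 268 CPM in tumours 1 to 6, against 92.3, 98.5, 118 and 116 CPM in glands 1 to 4. On the TMM scale the groups did not overlap, and the log2 fold change was 2.60 ± 0.60 (SE; adjusted p = 0.0190, edgeR). The call was lost without gland 1 or gland 2, where the adjusted p reached 0.0667 and the log2 fold change stayed between 2.22 and 2.79 over all libraries left out. H2afv was at 26.7, 65.1, 82.4, 68.8, 38.9 and 31.03 CPM in tumours, against 33.1, 27.1, 28.2 and 55.3 CPM in glands. Its groups overlapped and it was not called (0.54 ± 0.38, adjusted p = 0.332, edgeR). Within the pair, H2afz took 86.1, 85.3, 94.5, 92.5, 95.4 and 89.6% of counts in tumours, against 73.6, 78.4, 80.7 and 67.6% in glands. This share needs no scaling between libraries, and all 6 tumours, those with salivary transcripts included, lay above all 4 glands.

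H3f3a and H3f3b both encode H3.3, the H3 variant laid down outside replication. H3f3b was at 434, 880, 1955, 901, 1426 and 501 CPM in tumours, against 258, 284, 268 and 214 CPM in glands. The groups did not overlap on the TMM scale (log2 fold change 1.99 ± 0.49 SE, adjusted p = 0.0234, edgeR). Leaving out any 1 of the 4 glands took the adjusted p above 0.05, to at most 0.0735, at log2 fold changes no lower than 1.70. With age as a covariate it was 1.66 (adjusted p = 0.0635). H3f3a was at 325, 722, 1786, 1397, 1002 and 536 CPM in tumours, against 357, 397, 447 and 588 CPM in glands. Tumour 1 lay below all glands and tumour 6 below gland 4, and the gene was not called (1.10 ± 0.50, adjusted p = 0.145, edgeR). Without tumours 1 and 6 it was (1.44, adjusted p = 0.0305). H3f3b took 57.2, 54.9, 52.3, 39.2, 58.7 and 48.3% of the counts of the pair in tumours, against 41.9, 41.7, 37.5 and 26.7% in glands. In this share tumour 4 lay among the glands and the other 5 tumours above them.

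Cenpa encodes the H3 variant of centromeres, loaded after mitosis. It was at 6.72, 27.5, 100.4, 61.0, 30.3 and 16.9 CPM in tumours, against 3.65, 6.63, 6.24 and 4.01 CPM in glands. The groups did not overlap on the TMM scale, although tumour 1 exceeded gland 2 by little. The log2 fold change was the highest of the 8 variants at 2.98 ± 0.69 (SE; adjusted p = 0.0189, edgeR). Without gland 1 or gland 4 the call was lost, with an adjusted p of up to 0.0671 and log2 fold changes of at least 2.48. Relative to the counts of the H3.3 pair, Cenpa gave 0.885, 1.71, 2.68, 2.66, 1.25 and 1.63% in tumours, against 0.594, 0.975, 0.873 and 0.4997% in glands. In tumour 1 this value lay within the gland range, so that 5 of 6 tumours exceeded all glands.

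H2afy encodes macroH2A, an H2A variant with a large globular domain. It was at 49.3, 125, 112, 101, 101 and 92.9 CPM in tumours, against 11.0, 14.2, 12.3 and 70.1 CPM in glands. Tumour 1 and gland 4 each stood apart from their groups, and the groups overlapped through them. The log2 fold change was 1.85 ± 0.57 (SE; adjusted p = 0.0482, edgeR), and the call held in 2 of 10 fits with 1 library left out: it was lost without any one of tumours 2 to 6 or glands 1 to 3 (adjusted p up to 0.133), while without gland 4 the log2 fold change was 2.90 (adjusted p = 0.00315). The call was also lost with RLE scaling, DESeq2's kind of size factor (adjusted p = 0.0523), and with no filter on low counts (adjusted p = 0.0561). Gland 4 is also the library with the highest muscle marker sum, and the part of this in its H2afy level was not tested. H2afj, an H2A variant with an altered C-terminal tail, was at 91.0, 72.3, 73.3, 80.8, 48.8 and 63.7 CPM in tumours, against 53.9, 39.6, 45.0 and 27.2 CPM in glands. Only tumour 5 fell into the gland range (0.79 ± 0.27, adjusted p = 0.0706, edgeR). The gene was called higher by DESeq2 (adjusted p = 0.0303) and by edgeR with upper-quartile scaling, the stricter filter (CPM above 1 in 4 libraries) or age as a covariate (adjusted p = 0.0373, 0.0487 and 0.0393). H1f0 encodes the linker histone H1.0, associated with cells that have left the cycle. Its tumour levels of 120, 166, 172, 143, 120 and 115 CPM compared with 128, 81.5, 83.7 and 95.3 CPM in glands (0.52 ± 0.25, adjusted p = 0.176, edgeR), so it was not called.

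**Figure D2:**
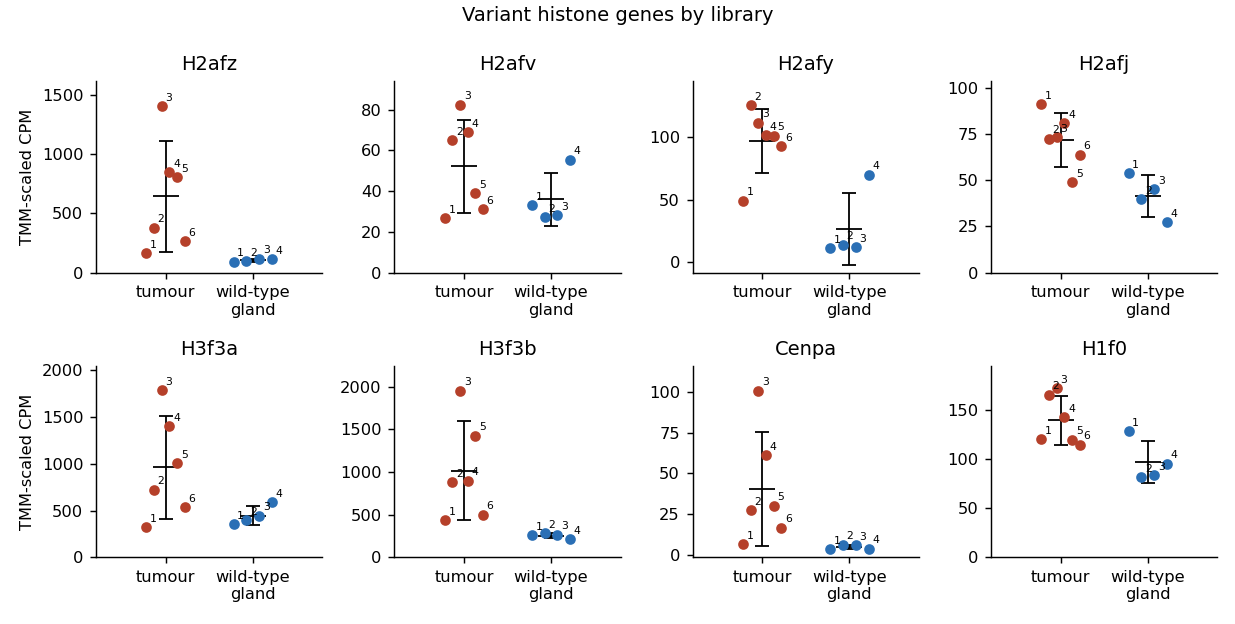
TMM-scaled CPM of each of the 8 variant histone genes (vertical axes, linear and separate for each gene), 6 tumours in red left of 4 wild-type glands in blue, numbered by replicate; bars show the mean and 1 SD. On this scale H2afz, H3f3b and Cenpa separate the groups, and tumour 1 is the lowest tumour in all 3.

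On the TMM scale the clustered genes summed higher in 5 of 6 tumours than in any gland. In tumours 2 to 5 this came with the counts of 1 gene. Their summed level was 380, 591, 1776, 1204, 663 and 275 CPM in tumours 1 to 6, against 278, 205, 235 and 364 CPM in glands 1 to 4. Tumour 6 lay in the gland range and the other 5 above it. Without TMM scaling the clustered genes took 0.0159, 0.08085, 0.158, 0.153, 0.0933 and 0.0272% of all counts in tumours, against 0.0299, 0.0271, 0.0307 and 0.0211% in glands. Tumour 1 then lay below every gland and tumours 2 to 5 above them. Hist1h2ap, an H2A gene, took 5.62, 71.1, 89.5, 88.4, 81.6 and 37.7% of all clustered counts in tumours, against 1.93, 17.5, 14.6 and 3.002% in glands. Without it the sums were 358, 171, 187, 140, 122 and 171 CPM in tumours, against 273, 169, 201 and 353 CPM in glands. On this TMM scale tumours 4 and 5 lay below all glands and tumour 1 above them, close to gland 4. In CPM without TMM scaling the place of tumour 1 turned: it lay below every gland, as did tumours 3 to 6, and tumour 2 lay in the gland range. The difference of the mean log2 sums, tumour minus gland, was 1.33 with Hist1h2ap and -0.41 without it, beside a pooled SD of 0.824 between libraries of a group for the full sum.

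Hist1h2ap was at 21.3, 420, 1589, 1064, 541 and 104 CPM in tumours, against 5.37, 35.8, 34.1 and 10.9 CPM in glands. Only tumour 1 lay in the gland range, and the other 5 tumours exceeded every gland. The log2 fold change was 4.85 ± 1.18 (SE; adjusted p = 0.0223, edgeR), lost without gland 1, 2 or 4 (adjusted p up to 0.0690, log2 fold change at least 4.33). The deposited symbol cannot be taken as this locus alone, because 93.4% of the 31-base words of its transcript also occur in Hist1h2ao. That gene was given 34 counts at most in any library, where Hist1h2ap was given up to 64248, and the sources used here do not say how reads were divided between the pair. Per kilobase of transcript, Hist1h2ap had the highest median level of the 77 genes in tumours (997 CPM per kb) and the fifth highest in glands (46.8 CPM per kb, lower than H3f3a, H3f3b, H2afz and Hist2h2aa2). Its annotated transcript is of the short class and carries no AATAAA or ATTAAA in its last 60 bases. The order of the 6 tumours by Hist1h2ap level was that by H2afz level, tumour 3 at the top and tumour 1 at the bottom.

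Of the 69 clustered genes, 53 passed the filter on low counts. Of these, 14 were called higher and 2 lower in tumours and 37 were not called, where 6.89% of all genes tested were called higher and 8.19% lower. On the TMM scale the groups were apart in 8 clustered genes with every tumour above every gland and in 1 with every tumour below, against 6.54% and 7.50% of all genes tested. Of these 8, 7 were among the 14 called higher. In CPM without TMM scaling the groups overlapped in Hist1h1b and Hist1h4f, each with 1 count in tumour 1 and 2 counts in gland 1. The 14 and the 8 are a description only, and no excess over all genes is read from them. The filter asks for a CPM floor in as many libraries as the smaller group holds, so tumours alone can carry a gene through it. No gland reached 10 counts in 20 of the 53 genes, among them 11 of the 14. A gland with 10 or more counts was found for 33 genes, of which 3 were called higher (Hist1h2ap, Hist1h3c and Hist1h2ae) and 2 lower. Such a gland does not show that a gene passed on its glands. Hist1h3c reached 10 counts in gland 2 alone, with 3, 2 and 0 counts in glands 1, 3 and 4. The count of 14 fell to 2, 3, 2 and 4 without tumour 2, 3, 4 or 5 and to 1, 0, 4 and 7 without gland 1, 2, 3 or 4. Without tumours 1 and 6 it was 24, with 7 lower. Fewer clustered genes passed the filter when tumour 2, 3, 4 or 5 was left out (37 to 40 of 69), and more when a gland was (61).

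The 17 clustered genes with a mean over both groups of at least 1 CPM had a median log2 fold change of -0.38, beside 0.17 over all genes, and in 12 of them the value was negative. Of these 17, 1 was called higher (Hist1h2ap) and 2 lower. The 12 negative values included that of Hist1h2al (-1.19), which is annotated as a pseudogene. Below 1 CPM lay 52 genes, of which 36 were tested. There the filter favours genes high in tumours, so the 2 levels are not compared. Per family, the summed level of H2A genes was 151 to 1638 CPM in tumours and 85.8 to 105 CPM in glands, without overlap on the TMM scale. In CPM without TMM scaling tumour 1 lay within the gland range for this sum. Without Hist1h2ap the H2A sum was 160 CPM in tumour 1 and 38.6 to 51.7 CPM in tumours 2 to 6, against 55.9 to 99.7 CPM in glands. On the TMM scale 5 tumours thus lay below every gland and tumour 1 above them. In CPM without TMM scaling this separation was lost, with tumour 1 within the gland range and gland 4 among the lowest libraries. The H1 sum was 27.0 to 50.7 CPM in tumours and 44.2 to 118 CPM in glands. H2B genes summed to 30.7 to 72.4 CPM in tumours and 51.0 to 102 CPM in glands, H3 genes to 8.17 to 26.5 CPM in tumours and 3.40 to 16.9 CPM in glands, and H4 genes to 15.7 to 48.5 CPM in tumours and 12.3 to 41.5 CPM in glands. On the TMM scale the groups overlapped in the H1, H2B, H3 and H4 sums.

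**Figure D3:**
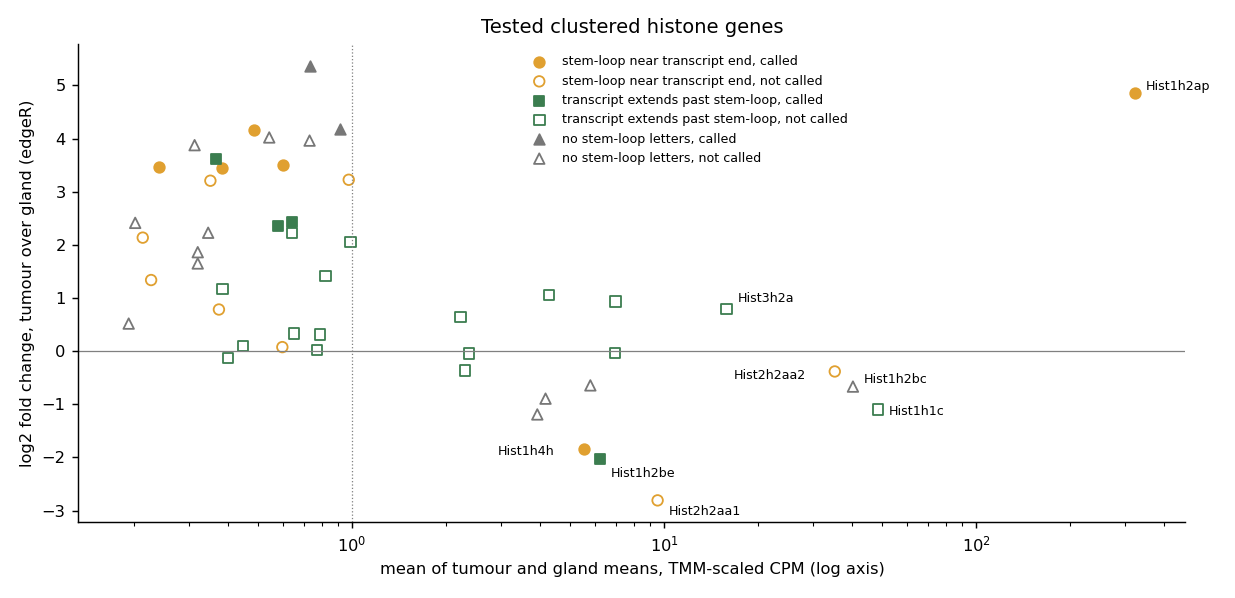
Log2 fold change, tumour over gland (edgeR, vertical axis), against the mean of both group means in TMM-scaled CPM (horizontal log axis) for 49 tested clustered genes; 4 with 3 or fewer counts over all glands are left out because their fitted values depend on the test's settings. Filled symbols passed the test. Right of the dotted line at 1 CPM, Hist1h2ap is the only filled symbol above 0.

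Both clustered genes that fell were at several CPM in glands. Hist1h4h, an H4 gene, was at 4.66, 2.07, 1.68, 1.08, 1.60 and 3.40 CPM in tumours, against 9.22, 5.26, 7.18 and 13.0 CPM in glands. No tumour reached a gland level, and tumours 1 and 6 were the nearest. The log2 fold change was -1.85 ± 0.47 (SE; adjusted p = 0.0265, edgeR), lost without tumour 2, tumour 4, gland 1 or gland 3 (adjusted p up to 0.0703, log2 fold changes between -2.14 and -1.68). Of its transcript's 31-base words, 50% also occur in other genes. Hist1h2be, an H2B gene with an extended transcript, was at 5.28, 2.50, 2.13, 1.18, 1.75 and 1.90 CPM in tumours, against 6.73, 3.95, 5.74 and 23.6 CPM in glands. Tumour 1 lay in the gland range and gland 4 far above the other glands. Its log2 fold change of -2.03 ± 0.58 (SE; adjusted p = 0.0385, edgeR) was -1.26 at its smallest with 1 library left out, and the call was lost without any one of tumours 2 to 5 or glands 1, 3 or 4 (adjusted p up to 0.0975). It was also lost with upper-quartile scaling, limma-voom or age as a covariate (adjusted p = 0.0602, 0.0514 and 0.0517).

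Among the other clustered genes of higher level, none was called. Hist1h1c encodes the linker histone H1.2 and was the main H1 gene, with 93.8, 84.5, 60.7, 59.9, 86.0 and 94.2% of clustered H1 counts in tumours, against 94.8, 92.5, 93.4 and 93.6% in glands. Its level was 47.5, 32.3, 20.5, 16.9, 23.2 and 44.3 CPM in tumours, against 69.7, 42.3, 41.3 and 110.4 CPM in glands. Tumours 2 to 5 lay below all glands, but tumours 1 and 6 did not (-1.10 ± 0.39, adjusted p = 0.0757, edgeR; -1.12 and 0.0441 with DESeq2). Leaving out tumour 1, tumour 6 or both gave adjusted p = 0.0465, 0.0478 and 0.0229, with log2 fold changes of -1.27, -1.29 and -1.51. Hist1h2bc was the H2B gene with the most counts, at 54.6, 30.3, 30.9, 13.0, 17.5 and 40.3 CPM in tumours, against 50.5, 34.8, 47.95 and 64.2 CPM in glands (-0.67 ± 0.38, adjusted p = 0.236, edgeR; -1.12 and 0.0467 without tumours 1 and 6). Hist2h2be, another H2B gene, lay at 2.48 to 6.79 CPM in tumours and 5.34 to 9.47 CPM in glands (-0.65, adjusted p = 0.261). The H2A gene Hist3h2a lay at 10.01 to 30.9 CPM in tumours and 9.68 to 13.3 CPM in glands (0.79, adjusted p = 0.115), and was called without tumours 1 and 6 (1.02, adjusted p = 0.0294).

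On the TMM scale tumour 1 stood apart in several clustered genes. Hist2h2aa1 and Hist2h2aa2 are near-identical H2A copies, each with at least 89.8% of its 31-base words in another gene model, and are given first as a pair. Together they gave 138, 12.6, 4.35, 4.46, 12.9 and 25.8 CPM in tumours, against 76.2, 40.6, 53.1 and 55.8 CPM in glands. Tumour 1 lay above all glands and the other 5 tumours below them. In CPM without TMM scaling tumour 1 lay within the gland range for the pair, and the other 5 tumours stayed below it. Singly, Hist2h2aa1 was listed at 0 counts in tumours 2 to 5 and at 120 and 225 counts in tumours 1 and 6, against 73 to 1287 counts in glands, and Hist2h2aa2 was at 130 CPM in tumour 1 and 4.35 to 19.5 CPM in the other tumours, against 20.5 to 51.1 CPM in glands. Neither was called (adjusted p = 0.276 and 0.776, edgeR), but Hist2h2aa1 was called lower by limma-voom (adjusted p = 0.00777). Without tumours 1 and 6 both were called lower by edgeR (adjusted p = 0.00171 for Hist2h2aa1 and 0.0138 for Hist2h2aa2, the second at a log2 fold change of -2.21), and Hist2h2aa2 also without tumour 1 alone (-1.89, adjusted p = 0.0287). Hist4h4 was at 27.2, 6.02, 4.53, 7.84, 4.24 and 5.05 CPM in tumours, against 1.51, 1.28, 2.73 and 13.7 CPM in glands, with tumour 1 and gland 4 apart from their groups (0.93 ± 0.80, adjusted p = 0.423, edgeR). Hist2h3c1, an H3 gene that shares all its 31-base words with another gene model, lay at 0.717 to 15.7 CPM in tumours and 1.00 to 6.36 CPM in glands (1.05, adjusted p = 0.386). Hist1h4i lay at 2.66 to 12.1 CPM in tumours and 4.23 to 13.5 CPM in glands (adjusted p = 0.967), and the sign of its log2 fold change of -0.03 turned under upper-quartile scaling.

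The 13 other clustered genes called higher averaged below 1 CPM over the groups, and each is given in counts or scaled CPM that rest on few reads in glands. Hist1h4j, an H4 gene with an extended transcript, gave 12, 41, 28, 64, 17 and 18 counts in tumours, against 3, 1, 0 and 2 counts in glands. In scaled CPM the groups did not overlap (log2 fold change 3.62 ± 0.79 SE, adjusted p = 0.0153, edgeR), and the call was lost without gland 2 alone (adjusted p = 0.0547). Hist1h1b encodes the linker histone H1.5 and gave 1, 64, 158, 165, 30 and 9 counts in tumours, against 2, 1, 1 and 0 counts in glands (5.37 ± 1.28, adjusted p = 0.0211, edgeR). It shares 3.93% of its 31-base words with other genes. The call was lost without gland 1 or 2 (adjusted p up to 0.0688). Hist1h2bk gave 6, 56, 105, 37, 16 and 2 counts in tumours, against 0, 2, 0 and 0 counts in glands.

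For 3 of these genes the glands held 1 or 2 counts in all, and the fold is given with its exact 95% counting interval, which covers counting error only. Hist1h2bk, an H2B gene, was 54.9-fold higher in tumours (interval 15.0 to 456, adjusted p = 0.0177, edgeR). The H3 gene Hist1h3g was 99.9-fold higher (17.7 to 3966, adjusted p = 0.0233) and Hist1h3a 93.0-fold higher (16.5 to 3693, adjusted p = 0.0270). These folds pool the counts of each group. Hist1h3g gave 0, 16, 72, 85, 25 and 4 counts in tumours 1 to 6, and Hist1h3a gave 3, 37, 64, 67, 17 and 0 counts. In both genes the groups overlapped, through tumour 1 for Hist1h3g and tumour 6 for Hist1h3a. Hist2h3b, also an H3 gene, had 0 counts in every gland and 226 counts over the tumours, none of them from tumour 1. Set against a floor of 3 counts over the gland group, it was at least 37.3-fold higher in tumours (adjusted p = 0.0430). The remaining 7 were the H4 genes Hist1h4f, Hist1h4d and Hist1h4b, the H2A genes Hist1h2af and Hist1h2ae, the H2B gene Hist1h2bj and the H3 gene Hist1h3c, with log2 fold changes of 2.35 to 4.17 and adjusted p-values of 0.0287 to 0.0458. The most highly counted of these, Hist1h2af, gave 5, 84, 277, 45, 39 and 15 counts in tumours, against 0, 9, 2 and 2 counts in glands. With 1 library left out, Hist1h2bk lost its call without gland 1 or 2 (adjusted p up to 0.0604). The other 10 of these genes lost it without gland 1, 2 or 3, and all but Hist1h4d without gland 4 too (adjusted p up to 0.135). With a tumour left out, calls were lost for Hist1h4d (tumour 2, 3 or 4), Hist1h2af (tumour 2 or 4) and Hist1h2ae (tumour 2, 3, 4 or 5), and the log2 fold change of Hist1h2af, 4.17, was 2.91 without tumour 3. Hist1h2bk, Hist1h1b and the other 7 did not pass the filter without tumour 2, 3, 4 or 5, so that their calls were not tried there. Each of those 10 also lost it in at least 1 of limma-voom, no filter on low counts and age as a covariate (adjusted p of 0.0504 to 0.0963 where lost). Of the 14 genes called higher, 10 share at least 50% of their 31-base words with other genes, as do 1 of the 2 lower and 21 of the 37 not called.

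By transcript class, 16 of 22 short, 21 of 22 extended and 16 of 25 genes without stem-loop letters were tested. Calls and medians are not compared between the classes, because tumours alone can carry a gene through the filter. In 20 of the 53 tested genes no gland reached 10 counts. At a mean of 1 CPM or more there were 4 short, 9 extended and 4 other genes, and the log2 fold change was negative in 3, 5 and 4 of them. A polyadenylation signal (AATAAA or ATTAAA) lay in the last 60 bases of 17 transcripts, of which 14 were tested. Of these 14, 2 were called lower (Hist1h4h and Hist1h2be), 2 higher (Hist1h4j and Hist1h2ae) and 10 were not called.

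A further 16 clustered genes did not pass the filter. The highest count among them was 77, for the H2B gene Hist1h2bm in tumour 4, and its counts were 0, 15, 58, 77, 1 and 1 in tumours, against 0, 3, 0 and 0 in glands. Of the 16, 5 had no count in any gland. Hist1h4m ran the other way among tumours, with 20 and 17 counts in tumours 1 and 6 and 0 in tumours 2 to 5, against 2 counts in gland 4 and 0 in glands 1 to 3. The number of clustered genes with any count was 46, 66, 64, 66, 63 and 61 in tumours, against 48, 56, 47 and 41 in glands, and was lowest in gland 4 and tumour 1, the libraries with the lowest scaling factors.

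Within a library, clustered counts were set against variant counts. The ratio was 0.312, 0.243, 0.312, 0.334, 0.186 and 0.169 in tumours 1 to 6, against 0.297, 0.216, 0.233 and 0.312 in glands 1 to 4. The groups overlapped throughout, with a log2 difference of -0.059 beside a pooled SD of 0.368, and its sign turned with single libraries left out. Without Hist1h2ap the ratio was 0.294, 0.0701, 0.0329, 0.0388, 0.0342 and 0.106 in tumours, against 0.291, 0.178, 0.199 and 0.302 in glands. Tumours 2 to 6 then lay below all glands and tumour 1 among them, with a log2 difference of -1.81. Leaving this gene out was chosen after its values were seen. The ratio compares libraries and says nothing about which class has more molecules, since counts were not divided by length here.

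**Figure D4:**
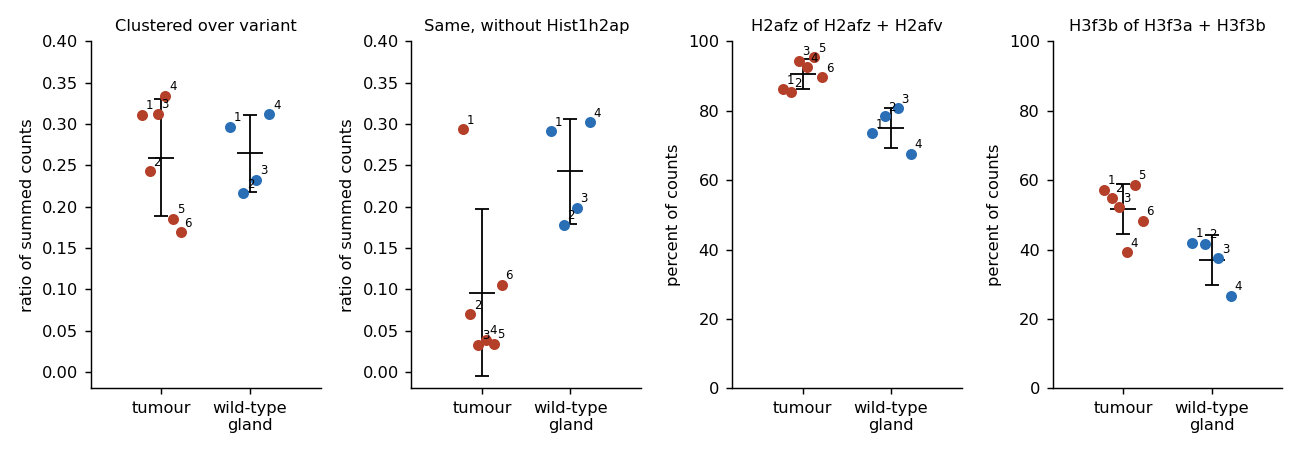
Ratio of summed clustered to summed variant counts with and without Hist1h2ap (2 left panels) and the share of H2afz in the H2A.Z pair and of H3f3b in the H3.3 pair in percent (2 right panels), 6 tumours in red left of 4 wild-type glands in blue, numbered by replicate; bars show the mean and 1 SD. The first ratio overlaps between groups, 5 tumours fall below all glands in the second, and the H2afz share separates the groups.

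Genes that act on histones or with them were read from 5 lists. In a list of 20 S-phase and proliferation genes, 9 were higher, the log2 fold change of all 20 was positive and its median was 2.13, where 6.89% of all genes tested were called higher and 8.19% lower and the median was 0.17. Their summed level was 209, 897, 2724, 1101, 817 and 565 CPM in tumours, against 176, 319, 293 and 193 CPM in glands. Tumour 1 lay in the gland range in this sum as it did for Hist1h2ap. Tyms, which makes thymidylate, rose by 2.50 ± 0.48 (SE; adjusted p = 0.00991, edgeR), Rrm2, a ribonucleotide reductase subunit, by 3.03 ± 0.66 (adjusted p = 0.0154) and the cyclin Ccna2 by 4.11 ± 0.90 (adjusted p = 0.0160). The calls of Rrm2 and Ccna2 were lost without gland 1 (adjusted p = 0.0542 and 0.0575), and the value of Ccna2 was 3.40 without tumour 3.

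In a list of 18 genes for the synthesis and 3′ end processing of histone mRNA, 1 was higher, a share near the 6.89% of all genes, and the smallest adjusted p among negative values was 0.0888 (Sympk). The median log2 fold change was 0.35. Zfp473, a zinc finger protein that joins Slbp to the U7 particle, was at 1.92, 1.42, 2.92, 1.14, 1.88 and 0.948 CPM in tumours, against 0.114, 0.312, 0.223 and 0.318 CPM in glands. All tumours lay above all glands (2.81 ± 0.55, adjusted p = 0.0103, edgeR), and the call held in all 10 fits with 1 library left out. Slbp, the stem-loop binding protein, was at 21.2, 47.3, 109.9, 55, 46.6 and 29.5 CPM in tumours, against 19.7, 23.8, 27.0 and 21.9 CPM in glands. Tumour 1 lay within the gland range, and the gene was not called (1.16 ± 0.42, adjusted p = 0.0821). Npat, the activator of clustered histone genes, averaged 20.6 CPM in tumours and 9.24 CPM in glands (1.16 ± 0.57, adjusted p = 0.176).

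Of 28 chaperones and deposition factors, 3 were higher and 1 lower, beside 6.89% and 8.19% of all genes, with a median of 0.63. Chaf1b, a subunit of the CAF-1 complex that deposits H3 and H4 at replication forks, rose by 2.93 ± 0.73 (SE; adjusted p = 0.0250, edgeR). Oip5, which takes part in preparing centromeres for Cenpa, rose by 3.08 ± 0.82 (SE; adjusted p = 0.0307, edgeR), while Hjurp, the chaperone of Cenpa, averaged 37.2 CPM in tumours and 16.5 CPM in glands without a call (1.18 ± 0.49, adjusted p = 0.123). Srcap, the motor of a complex that inserts H2A.Z, was at 6.37, 6.79, 3.66, 5.13, 5.23 and 13.3 CPM in tumours, against 33.7, 35.7, 19.1 and 8.58 CPM in glands. It fell by 1.85 on the log2 scale (SE 0.45, adjusted p = 0.0233), with gland 4 between the tumours. The calls of Chaf1b, Oip5 and Srcap were each lost without gland 1. Those of Srcap and Oip5 were also lost without gland 2, those of Chaf1b and Oip5 without gland 3 or gland 4, and that of Oip5 without tumour 4 (adjusted p up to 0.0931). The log2 fold change of Oip5 was 2.24 without tumour 3. With age as a covariate all 3 of these calls were lost (adjusted p of 0.0600 to 0.0750). Of 20 deacetylases and acetyltransferases the smallest adjusted p was 0.0510 (Hdac7, a class II deacetylase), and the median log2 fold change was -0.17. H2afx, the H2A variant phosphorylated at DNA breaks, was the only one called of 3 further variant genes tested, at 10.1, 67.5, 26.9, 32.6, 35.4 and 29.2 CPM in tumours and 8.76, 15.5, 13.5 and 7.19 CPM in glands (1.58 ± 0.47, adjusted p = 0.0433, edgeR). Tumour 1 lay in the gland range, and the call of H2afx held in 1 of 10 fits with 1 library left out. It was lost with limma-voom, with no filter and with age as a covariate (adjusted p = 0.0624, 0.0767 and 0.0814).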

How the data were processed

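PolyA RNA of tissue dissolved in TRIzol was sequenced from NEBNext Ultra libraries, per the labels' protocols. The authors deposited 1 table of whole-number counts, with 38279 gene symbols in rows and 10 libraries in columns. Salmon 1.2.0, DESeq and the mm9 build are named without roles, per the submitters' processing notes. If Salmon made the counts, they are rounded estimates in which its model divided the reads of near-identical genes. Coordinates and sequences come from RefSeq (GRCm38.p6) and GENCODE M21, not from the files' build.

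The 20101 genes kept by filterByExpr were normalised with TMM. Tumours were tested over glands in edgeR 4.0.16 (R 4.3.3) by its quasi-likelihood F test, with Benjamini-Hochberg adjustment over all of them, and a gene was called at an adjusted p below 0.05, two-sided. Each standard error is the log2 fold change over the root of its F value. The biological coefficient of variation was 0.707. Alternatives used RLE or upper-quartile scaling, DESeq2 1.42.0, limma-voom (3.58.1), other filters, age as a covariate, a 2-fold threshold and fewer libraries. Sums of members carry no test. Shared sequence is the percentage of a gene's 31-base words found in transcripts of other genes. An outlying library was sought on log2(CPM + 0.1).

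The labels do not say that each library came from its own animal, and the sources used here do not give its sequencing run. The p-values therefore cover only the variation among these libraries. No pair of libraries was a copy (highest Spearman correlation 0.973, over 45 pairs). Named genes are the 8 variants, the 12 clustered genes with the highest mean level, every clustered gene called, up to 3 called genes per list and direction, and Fbxw7. A few others (Hist1h4m, Hist1h4n, Hist1h2ao, Slbp, Npat, Hjurp, Sympk, Hdac7) were named after their values were seen. A called gene of the chaperone list is not reported here by name. Members and lists were chosen with earlier results of these data known.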

Additional observations from a re-analysis of the deposited data

Results flagged for a closer look

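Among 82 groups of libraries looked at for 1 library far from the rest, 8 were found, where chance gives about 1 in 20. The value given is the gap to the nearest library divided by the range of the group on the log2(CPM + 0.1) scale. H2afy stood out in tumour 1 (0.680, at 49.3 CPM, below the other tumours) and in gland 4 (0.866, at 70.1 CPM, above the other glands). Hist4h4 stood out in tumour 1 (0.672, at 27.2 CPM, above the others). Hist1h4d stood out in tumour 6 (0.659, at 0.195 CPM, below the others). Hist1h2af stood out in gland 1 (0.853), where it had 0 counts. Hist1h2bk and Hist1h3g stood out in gland 2 (1.000 each, with 2 counts and 1 count) and Hist1h3a in gland 1 (1.000, with 1 count), each because the other glands of these genes were at 0, so these values rest on 1 or 2 reads.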

How the results depend on the processing

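No paired analysis was possible because the labels give the tumours and glands no shared replicate numbers. The count of clustered genes called higher, 14, was 7 with limma-voom, 4 with a stricter filter (CPM above 1 in 4 libraries, 22 clustered genes tested), 6 with age as a covariate, 24 without tumours 1 and 6, and 0 to 18 with single libraries left out. The count called lower, 2, was 4 with DESeq2, 1 with upper-quartile scaling, 1 with age as a covariate, 7 without tumours 1 and 6, and 0 to 5 with single libraries left out. Variant genes called higher, 4, were 0 to 4 with single libraries left out and 3 to 5 under the other settings. The log2 difference of the clustered sum was -0.413 and that of the ratio to variant counts -1.81 without Hist1h2ap, which was left out with its values known; the sums otherwise stayed within 1 SD under the scalings and left-out libraries tried. The sign of Hist1h4i turned with upper-quartile scaling (0.11), with the stricter filter (0.0088) and with single libraries left out (range -0.27 to 0.41), and that of Fbxw7 with upper-quartile scaling (0.013), with limma-voom (0.33) and with single libraries left out (range -0.37 to 0.80). The cause was not tested for these changes, except that the stricter filter tests fewer genes. With upper-quartile scaling the median over all genes tested was 0.32 on the log2 scale, beside 0.17, and the calls over all genes were 1809 higher and 1313 lower, beside 1384 and 1646. Without a filter 980 genes were called higher and 1494 lower, and with age as a covariate 908 and 991. Depth limits the folds of 20 of the 53 clustered genes tested, for which no gland reached 10 counts.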
